A study of Xenopus laevis with 2 samples.

Results

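The mitochondrial carriers of the SLC25 family were read out in Xenopus laevis animal caps that expressed the Nodal ligand xnr2. Members are all gene models whose deposited symbol is SLC25A followed by a number, which gave 62 of the 24364 models in the table. They carry 36 symbols, of which 20 have 2 models, 14 have 1, SLC25A25 has 3 and SLC25A22 has 5. X. laevis is allotetraploid and keeps 2 subgenomes, L (long) and S (short), and many genes exist as an L and an S copy. Of the members, 36 models lie on L chromosomes, 22 on S chromosomes and 4 on scaffolds.

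Embryos were injected with xnr2 RNA between the 2-cell and the 4-cell stage. The animal cap, the ectodermal roof of the embryo, was cut at stage 10 and cultured until stage 14. Each RNA preparation came from a pool of 10 explants. There is 1 group with 2 libraries, numbered 3 and 1 in the labels, and both carry exogenous xnr2. No control caps enter any statement, so a level below is not a response to xnr2. The labels do not say whether the libraries came from separate clutches, and the spread between them may be technical. Library 3 held 29238297 exon reads and library 1 held 25880104.

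SLC25 proteins sit in the inner membrane of mitochondria, and a few in other membranes. Each is built of repeated pairs of membrane-spanning helices and exchanges small molecules such as nucleotides, phosphate, carboxylates, amino acids and cofactors between matrix and cytosol. They are made in the cytosol, pass the outer membrane through the Tom complex and are guided by small Tim chaperones to an inner membrane insertase. Embryos of Xenopus carry a large maternal store of mitochondria, and muscle, which forms in tissue exposed to Nodal signals, is a tissue with high demand for ATP exchange.

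Levels are given as RPKM, exon reads scaled to exon length and library total, where genes are compared. CPM, reads scaled to the library total alone, are used for minimums and sums. Means are over the 2 libraries with their SD (n = 2). Members took 0.543% of all exon reads in library 3 (exact binomial 95% interval 0.540 to 0.545%) and 0.629% in library 1 (0.626 to 0.632%). The intervals cover counting error only. The model of SLC25A5 alone held 62.7% of the members' reads in library 3 and 67.1% in library 1. Without it the members took 0.202% of exon reads in library 3 and 0.207% in library 1. The share of the family was thus set by 1 model, and the rest of the family had nearly the same share in both libraries.

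At least 1 CPM in both libraries was reached by 43 of 62 members (69.4%), against 62.8% of all models. These 43 belong to 28 of the 36 symbols. The median member level was 3.31 RPKM (quartiles 0.286 and 8.93), where the median of all models was 1.91 RPKM (quartiles 0.115 and 9.87). A mean of 100 RPKM or more was reached by 3 of 62 members, against 3.67% of all models, and 10 RPKM or more by 14 of 62, against 24.8%. Both shares lie near those of all models. Just above the minimum of 1 CPM lay SLC25A39 on 9_10S at 1.20 CPM in library 3 and 1.31 CPM in library 1. Next came SLC25A10 at 1.98 and 2.36 CPM, then SLC25A21 at 2.33 and 3.59 CPM, tied with SLC25A38 on 4L. Just below lay SLC25A4 on 1S at 0.718 CPM in library 3 and 1.51 CPM in library 1, SLC25A37 on 3S at 0.684 and 0.889 CPM, and SLC25A12 at 0.650 and 0.927 CPM.

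**Figure D1:**
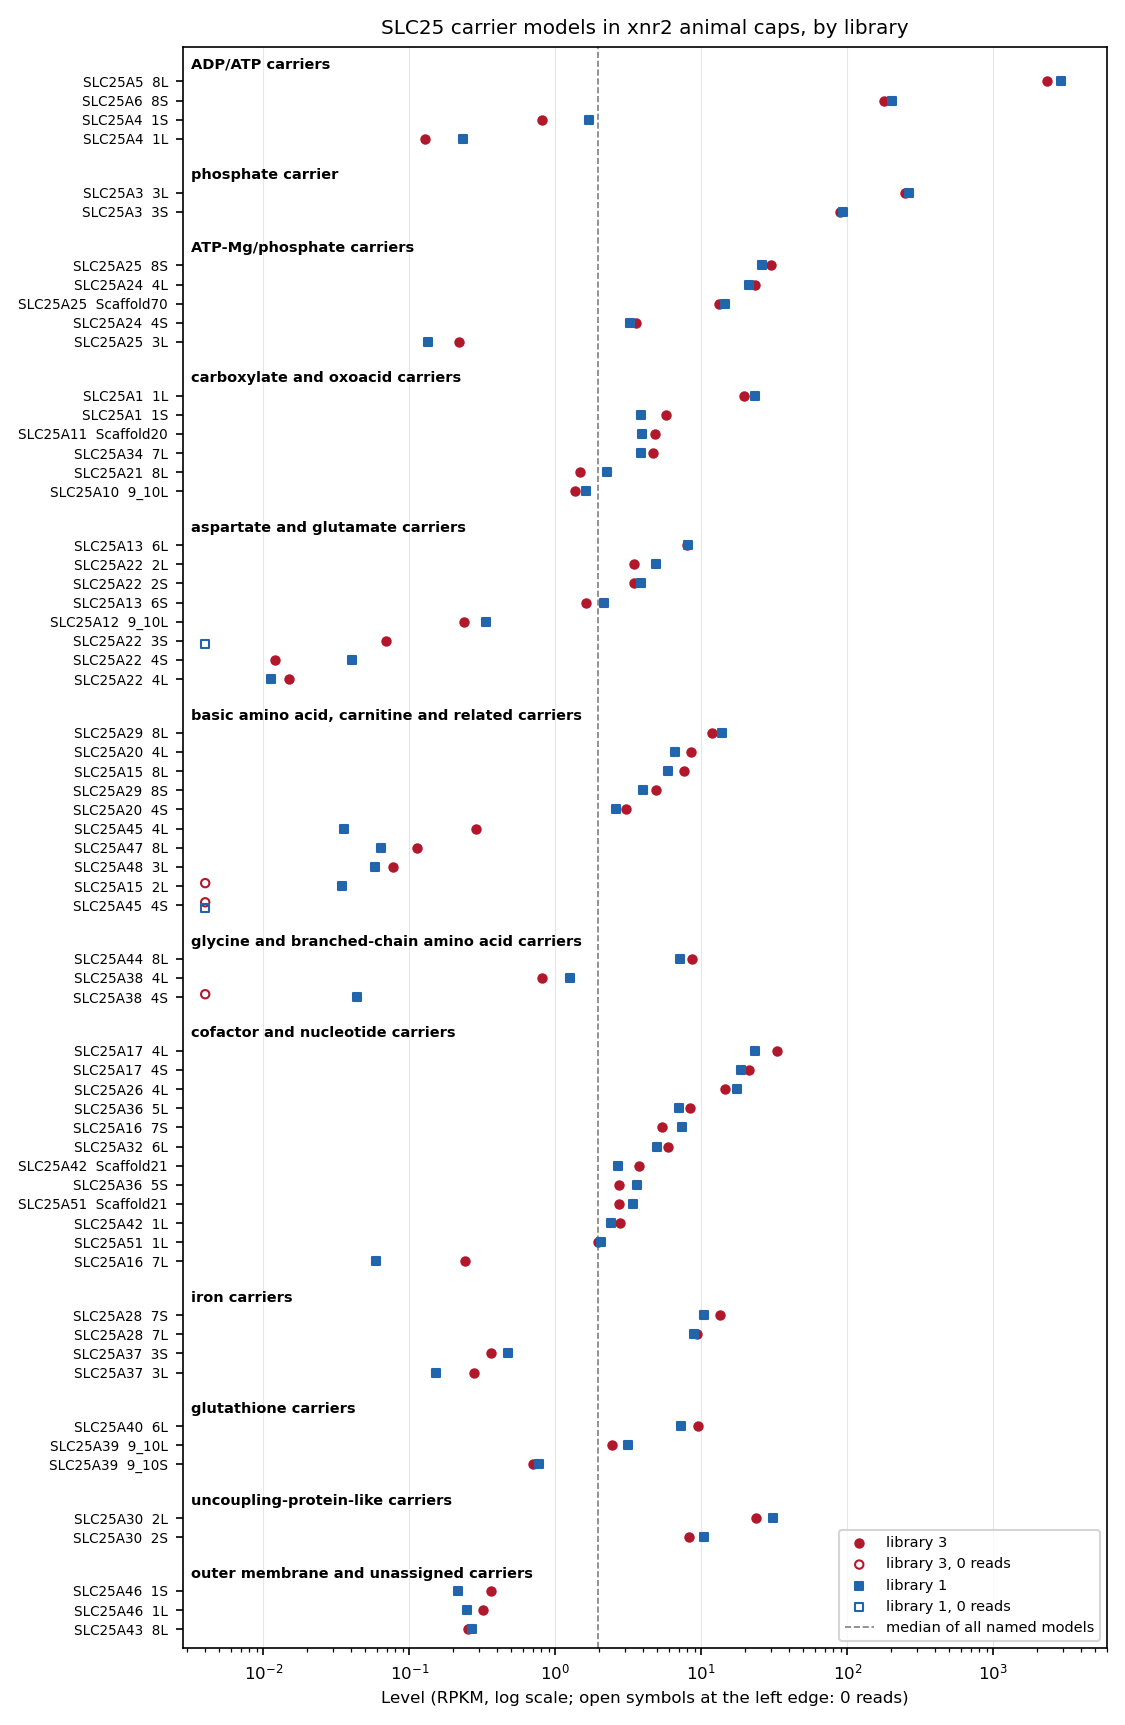
Level of each of the 62 SLC25A models in library 3 (red circles) and library 1 (blue squares), in RPKM on a log axis, grouped by what the carriers transport. Open symbols at the left edge stand for 0 reads, and the dashed line is the median of all named models (1.97 RPKM). SLC25A5 stands alone at 2344 and 2908 RPKM, while the models of SLC25A4 lie below the median line.

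The ADP/ATP carriers, which bring ADP into the matrix and ATP out, held 71.0% of the members' reads in library 3 and 75.2% in library 1. SLC25A5 (chromosome 8L, 38252498 to 38255696, plus strand) had 2344 RPKM in library 3 and 2908 RPKM in library 1. Its mean of 2626 ± 399 RPKM placed it at rank 11 of all 24364 models by level per length. The model called SLC25A6 (8S, 65765756 to 65769437, plus strand) lies, by its neighbours, where the S copy of slc25a5 is annotated. Its comparison with SLC25A5 may thus be between an L and an S copy of the same gene. SLC25A6 had 178 RPKM in library 3 and 201 RPKM in library 1. Per exon length, SLC25A5 was therefore 13.2-fold above SLC25A6 in library 3 and 14.5-fold in library 1. Its exons are shorter (1452 against 2533 bases), and the gap was smaller for reads alone. These were 3403 CPM in library 3 and 4223 CPM in library 1 for SLC25A5, and 451 and 509 CPM for SLC25A6.

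SLC25A4, the ADP/ATP carrier typical of heart and skeletal muscle in mammals, had few reads. Its S model (1S, 33502974 to 33516458) had 21 reads in library 3 and 39 reads in library 1, or 0.807 and 1.69 RPKM. Its L model (1L, 37610691 to 37619997) had 5 reads in library 3 and 8 in library 1. Summed over both models, SLC25A4 came to 0.889 CPM in library 3 and 1.82 CPM in library 1. In the same libraries 16 of 18 models of a skeletal muscle marker list (MYL1, CKM, ACTC1, MYLPF, MYOD1, ACTA1 and DES) reached 1 CPM. The list summed to 29952 CPM in library 3 and 30002 CPM in library 1, but single markers differed in both directions. MYOD1 on 4S had 699 CPM in library 3 and 461 CPM in library 1, and CKM on 8L had 2865 and 3859 CPM. In bulk RNA, fewer cells of a type and less RNA per cell cannot be told apart.

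The phosphate carrier SLC25A3 supplies the phosphate that ATP synthase uses, and it was the next most abundant family member. Its L model (3L, 44353630 to 44361802, plus strand) had 250 RPKM in library 3 and 264 RPKM in library 1. Its S model (3S, 93922737 to 93933872, minus strand) had 89.5 RPKM in library 3 and 94.0 RPKM in library 1. SLC25A5, SLC25A6 and both SLC25A3 models together held 85.7% of the members' reads, and each of the other 58 members had a mean below 30 RPKM. The mean of the L model, 257 ± 10.4 RPKM, lay above that of SLC25A6, 190 ± 16.1 RPKM, by more than either SD. That lead depends on exon length (1782 bases for the L model and 2533 for SLC25A6). For reads alone the L model had 457.9 ± 18.6 CPM and SLC25A6 had 480.1 ± 40.8 CPM.

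Genes that work beside the ADP/ATP and phosphate carriers were set next to them from lists of known function. Of 15 symbols for ATP synthase subunits and the inhibitor ATPIF1, all 31 models were present at 1 CPM or more in each library. Their median was 43.1 RPKM and their range 1.77 to 277 RPKM. The highest was the catalytic subunit ATP5B on 2S, at 286 RPKM in library 3 and 268 RPKM in library 1, a level like that of SLC25A3 on 3L. The 20 models of the machinery that imports carriers also all reached 1 CPM, with a median of 46.9 RPKM. It was led by TOMM7, a small Tom subunit, at 218 RPKM in library 3 and 283 RPKM in library 1 (6L). The outer membrane channels VDAC1 and VDAC2, through which carrier substrates pass, had 3 models between 41.0 and 131 RPKM. The highest was VDAC2 (Scaffold19), at 105 RPKM in library 3 and 157 RPKM in library 1. The pyruvate carrier, which is not an SLC25 protein, reached 123 RPKM in library 3 and 150 RPKM in library 1 for MPC2 on 2S.

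**Figure D2:**
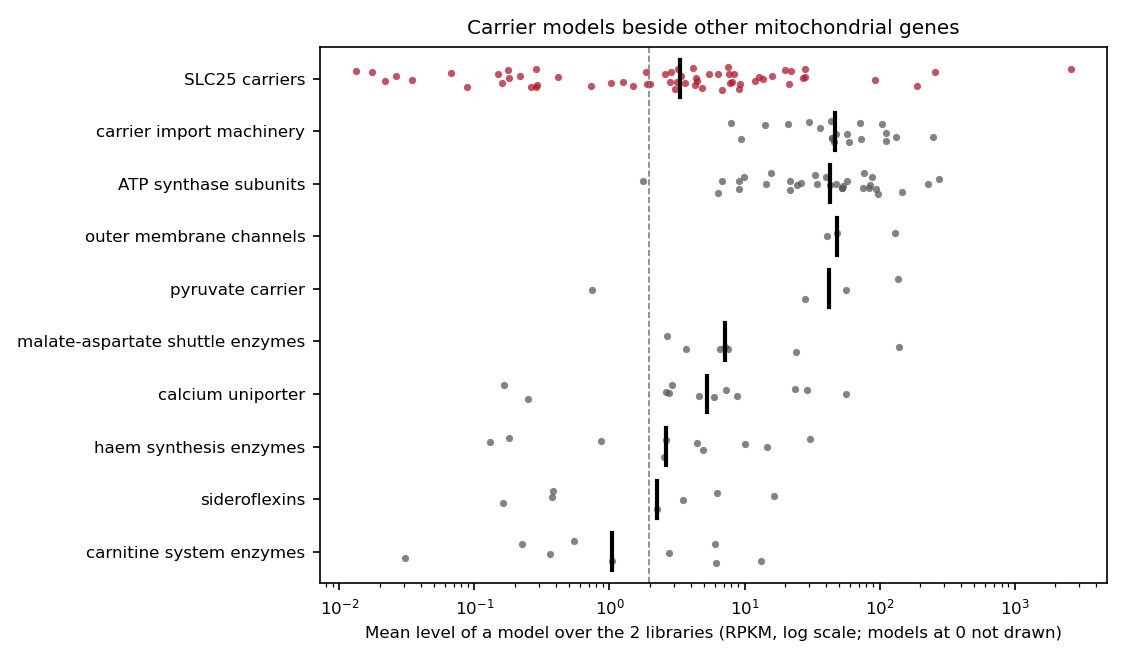
Mean level over the libraries of each SLC25A model (red) and of the models of 9 other lists of mitochondrial genes (grey), in RPKM on a log axis. Bars mark the median of a list and the dashed line the median of all named models. The import machinery, ATP synthase, outer membrane channels and pyruvate carrier have medians above 40 RPKM, where the carriers have 3.31 RPKM and the widest range.

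The ATP-Mg/phosphate carriers adjust the adenine nucleotide pool of the matrix and are switched by calcium. SLC25A25 on 8S led them, at 30.2 RPKM in library 3 and 26.1 RPKM in library 1. SLC25A24 on 4L followed at 23.2 RPKM in library 3 and 21.1 RPKM in library 1, and its S copy had 3.56 and 3.23 RPKM. A second SLC25A25 model, on Scaffold70, had 13.1 RPKM in library 3 and 14.4 RPKM in library 1. The model called SLC25A25 on 3L had only 13 reads in library 3 and 7 in library 1. Of the calcium uniporter, the other calcium-linked transport system considered, 10 of 12 models reached 1 CPM, led by its small regulatory subunit SMDT1 (4S) at 47.4 RPKM in library 3 and 66.1 RPKM in library 1.

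Carriers of carboxylates and oxoacids were led by the citrate carrier SLC25A1, which exports citrate for lipid synthesis. Its L model (1L, 153611266 to 153632150) had 19.6 RPKM in library 3 and 23.3 RPKM in library 1, and its S model (1S, 126642372 to 126672267) had 5.76 and 3.89 RPKM. The oxoglutarate carrier SLC25A11 (Scaffold20) had 4.85 RPKM in library 3 and 3.90 RPKM in library 1. SLC25A34, whose substrate is not settled, had 4.68 and 3.88 RPKM. The oxodicarboxylate carrier SLC25A21 and the dicarboxylate carrier SLC25A10 were lowest, at 1.87 ± 0.567 and 1.498 ± 0.182 RPKM, a difference smaller than the SD of SLC25A21. Within each library SLC25A21 was the higher, at 1.47 against 1.37 RPKM in library 3 and 2.27 against 1.63 RPKM in library 1. All 6 models of the group reached 1 CPM in both libraries.

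Of the carriers of aspartate and glutamate, the aspartate/glutamate carrier SLC25A13 was higher than its relative SLC25A12. SLC25A13 on 6L had 7.93 RPKM in library 3 and 8.14 RPKM in library 1, while SLC25A12 had 0.235 and 0.336 RPKM. These carriers serve the malate-aspartate shuttle, whose enzymes ranged from 2.67 RPKM to 140 RPKM, the highest being the cytosolic malate dehydrogenase MDH1 (5L) at 130 RPKM in library 3 and 151 RPKM in library 1. The glutamate carrier symbol SLC25A22 covered 5 models of very different level. Those on 2L and 2S had 3.47 and 3.45 RPKM in library 3, and 4.87 and 3.83 RPKM in library 1. Those on 4L, 4S and 3S had 3, 2 and 1 reads in library 3, and 2, 6 and 0 reads in library 1.

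Carriers of basic amino acids and acylcarnitine were led by SLC25A29, a carrier of arginine and lysine. Its L model had 11.9 RPKM in library 3 and 13.9 RPKM in library 1, and its S model had 4.87 and 3.96 RPKM. The carnitine/acylcarnitine carrier SLC25A20, which lets fatty acids enter the matrix for oxidation, had 8.48 RPKM in library 3 and 6.57 RPKM in library 1 from its L copy. The enzymes of the carnitine system had a median of 1.04 RPKM and were led by CPT1A on 7L, at 13.0 RPKM in library 3 and 13.6 RPKM in library 1. The ornithine carrier SLC25A15 of the urea cycle had 7.62 RPKM in library 3 and 5.93 RPKM in library 1 on 8L, while a second model on 2L had 0 reads in library 3 and 1 in library 1. SLC25A44, a carrier of branched-chain amino acids, had 8.58 RPKM in library 3 and 7.16 RPKM in library 1.

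Of the cofactor and nucleotide carriers, 11 of 12 models reached 1 CPM in both libraries. SLC25A17, which serves peroxisomes and not mitochondria and carries CoA, FAD and NAD, led them with 33.1 RPKM in library 3 and 23.3 RPKM in library 1 on 4L. Its S copy had 21.1 RPKM in library 3 and 18.7 RPKM in library 1. SLC25A26, which brings S-adenosylmethionine into the matrix, had 14.6 and 17.5 RPKM. The pyrimidine nucleotide carrier SLC25A36 on 5L had 8.35 RPKM in library 3 and 7.03 RPKM in library 1. SLC25A32, a folate and FAD carrier, averaged 5.45 ± 0.70 RPKM. The CoA carrier SLC25A42 averaged 3.22 ± 0.731 RPKM on Scaffold21 and 2.59 ± 0.283 RPKM on 1L, a difference smaller than the larger SD. Within each library the Scaffold21 model was the higher, at 3.73 against 2.79 RPKM in library 3 and 2.70 against 2.39 RPKM in library 1. The NAD carrier SLC25A51 averaged 3.06 ± 0.450 RPKM on Scaffold21 and 2.01 ± 0.0776 RPKM on 1L.

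The mitoferrins SLC25A28 and SLC25A37 bring iron into mitochondria, and SLC25A37 is the form used by developing red cells in zebrafish and mouse. SLC25A28 had 13.4 RPKM in library 3 and 10.4 RPKM in library 1 on 7S, and 9.30 and 8.92 RPKM on 7L. SLC25A37 had 20 reads in library 3 and 23 in library 1 on 3S, and 33 and 16 reads on 3L. SLC25A38, the glycine carrier that feeds haem synthesis, had 68 reads in library 3 and 93 in library 1 on 4L, and 0 and 1 reads on 4S. Of a list of blood markers, 1 of 15 models reached 1 CPM, and their sum was 17.1 CPM in library 3 and 23.4 CPM in library 1. That model was a globin, HBZ on 9_10L, at 16.1 CPM in library 3 and 21.7 CPM in library 1, most of the sum. The erythroid factor GATA1 and the erythroid haem enzyme ALAS2 had 0 reads in both libraries. Of the haem synthesis enzymes, ALAD was highest, at 26.9 RPKM in library 3 and 33.8 RPKM in library 1 on 8S. The housekeeping form ALAS1 had 2.63 RPKM in library 3 and 2.58 RPKM in library 1 on 4S. Its model on 4L had 0.627 RPKM in library 3 and 1.10 RPKM in library 1, from 40 and 62 reads.

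The glutathione carriers SLC25A40 and SLC25A39 reached 9.44 RPKM in library 3 and 7.30 RPKM in library 1 (SLC25A40, 6L) and 2.45 and 3.15 RPKM (SLC25A39, 9_10L). SLC25A30, a relative of the uncoupling proteins, stood among the 10 highest members, with 23.5 RPKM in library 3 and 30.8 RPKM in library 1 on 2L. The uncoupling protein UCP2 belongs to the same family but not to the SLC25A symbols. One model called UCP2, on 2L, had 179 RPKM in library 3 and 206 RPKM in library 1, close to SLC25A6. The other models called UCP2, on 2L, 1L and 1S, had 0 reads in both libraries. MTCH2, an outer membrane relative, had 28.3 RPKM in library 3 and 23.9 RPKM in library 1 on 4L. SLC25A46, an outer membrane protein tied to mitochondrial shape, had 0.363 RPKM in library 3 and 0.216 RPKM in library 1 on 1S, and at most 19 reads per library from either copy.

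Of the members, 8 had fewer than 10 reads over both libraries. Besides 3 models of SLC25A22 and the low copies of SLC25A15 and SLC25A38, these were SLC25A47 (4 reads in library 3 and 2 in library 1), SLC25A48 (3 and 2 reads) and SLC25A45 on 4S. SLC25A45 on 4S was the only member with 0 reads in both libraries, and a count of 0 allows up to 0.103 CPM in library 3 and 0.116 CPM in library 1. Some carriers lie next to each other at very different levels. SLC25A43 ends 4024 bases before SLC25A5 begins on the same strand of 8L, and it had 17 reads in library 3 and 16 in library 1, against 99492 and 109293 reads for SLC25A5. SLC25A47 (plus strand) begins 14080 bases beyond the higher coordinate of SLC25A29 (minus strand) on 8L, so the genes point away from each other. There SLC25A29 had 1645 reads in library 3 and 1709 in library 1.

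Copies on the L and S subgenomes were then compared within each library, per exon length. There were 19 member pairs on matching chromosomes, of which 17 had at least 10 reads in each library. The L copy was at least 2-fold higher in both libraries in 9 pairs (52.9%), against 29.2% of 5595 pairs over the whole table. The S copy was at least 2-fold higher in 2 pairs (11.8%), against 19.6% of all pairs. The L copy was above the S copy by any amount in both libraries in 12 pairs (70.6%), against 52.0%. The median log2 ratio of L over S was 1.37 over member pairs and 0.26 over all pairs. Where both copies are nearly identical in sequence, their reads could not be told apart with certainty, and the exon length of a model enters each ratio. Among pairs whose exon lengths lie within 1.5-fold, the L copy was at least 2-fold higher in both libraries in 5 of 10 member pairs, against 29.0% of all such pairs. The S copy was at least 2-fold higher in 1 of them, against 19.3%.

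Among the pairs led by L, the ATP-Mg/phosphate carrier SLC25A24 had the most L reads over both libraries apart from the phosphate carrier SLC25A3. SLC25A24 had 1886 L reads and 279 S reads in library 3, and 1520 and 224 in library 1, a log2 ratio per length of 2.67 in both. SLC25A13 had ratios of 2.22 in library 3 and 1.87 in library 1, and SLC25A39 had 1.67 and 1.90. SLC25A29 had 1.27 in library 3 and 1.79 in library 1, and SLC25A20 had 1.44 and 1.30. SLC25A38 had 68 L reads and 0 S reads in library 3, and 93 and 1 in library 1. Its log2 ratios per length were 3.19 in library 3 and 3.23 in library 1. From reads summed over the libraries with nothing added, L was 49.5-fold above S per length, not on the log2 scale. The exact interval of that fold from counting was 8.76 to 1966. SLC25A36 passed 2-fold only in library 3, at a log2 ratio of 1.57, against 0.94 in library 1.

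Exon length decided the call for the other 3 pairs led by L, whose L models are shorter. SLC25A3 had a log2 ratio of 1.48 in library 3 and 1.49 in library 1 per length, but 0.70 and 0.72 for reads alone. SLC25A30 had 1.51 in library 3 and 1.56 in library 1 per length, but 0.59 and 0.63 for reads alone. SLC25A1 had 1.75 in library 3 and 2.55 in library 1 per length, and 0.93 and 1.74 for reads alone. SLC25A17 went the other way, with 0.64 in library 3 and 0.31 in library 1 per length but 2.02 and 1.69 for reads alone. Without length correction 7 member pairs were led by L, and the share over all pairs was not computed for that setting.

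The 2 pairs led by S were SLC25A16 and SLC25A4. SLC25A16, a carrier linked to CoA, had 431 S reads and 14 L reads in library 3, and 529 and 3 in library 1. Its log2 ratio of L over S was -3.99 in library 3 and -5.56 in library 1. SLC25A4 had ratios of -1.99 in library 3 and -2.44 in library 1 on the few reads given above. The copies of SLC25A46, SLC25A22 (chromosome 2) and SLC25A28 differed by less than 1.5-fold in both libraries.

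**Figure D3:**
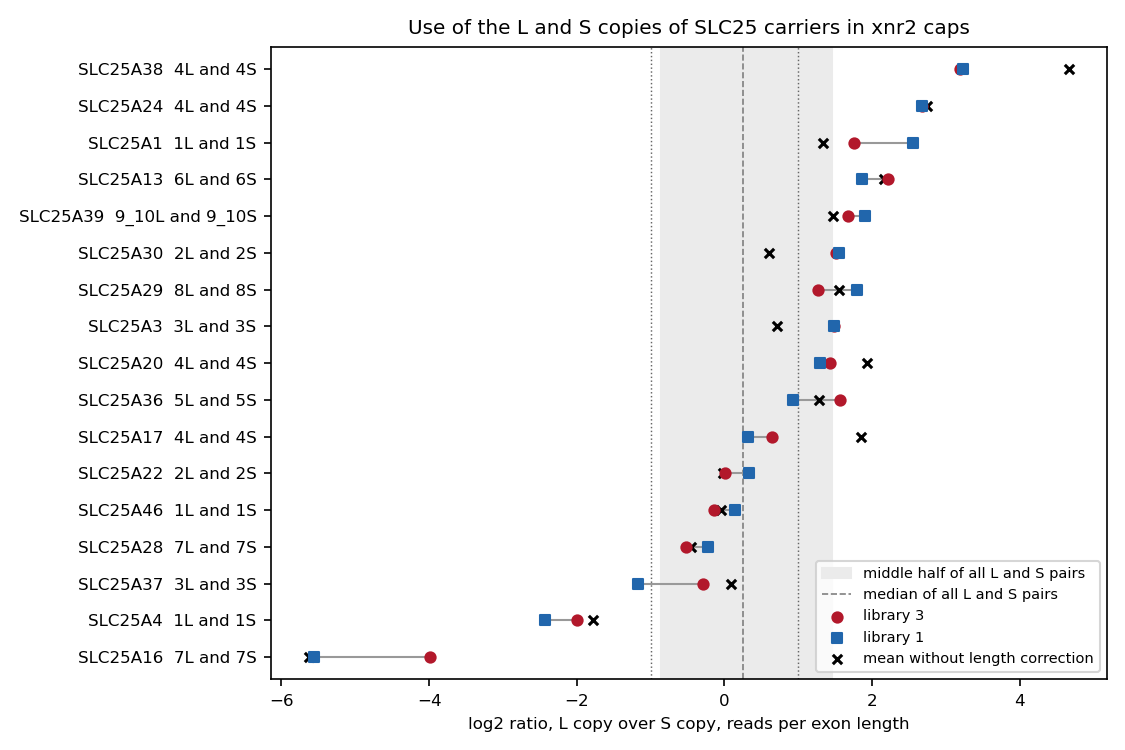
Log2 ratio of the L over the S copy per exon length for the 17 SLC25A pairs with 10 reads, in library 3 (red circles) and library 1 (blue squares). Crosses give the mean ratio without length correction, the grey band runs from the lower to the upper quartile of all 5595 pairs (-0.86 to 1.45), and dotted lines mark 2-fold. The 9 pairs at the top lie right of 2-fold in both libraries, and SLC25A16 lies farthest to the left.

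The split between copies itself was compared between the libraries by Fisher's exact test on reads, adjusted over all 5595 pairs by the Benjamini-Hochberg method, with a difference of at least 1.5-fold. This test was chosen after the values had been seen, and it compares libraries, not conditions. The L share was higher in library 3 for 2 member pairs, against 6.92% of all pairs, and lower for 1, against 6.6%. SLC25A36 was higher by 0.63 in its log2 ratio of L over S (Fisher's exact test, adjusted p = 0.000113) and SLC25A16 by 1.57 (Fisher's exact test, adjusted p = 0.0100). In SLC25A1 the ratio fell by 0.80 (Fisher's exact test, adjusted p = 5.82e-07), since its S copy had 343 reads in library 3 and 205 in library 1 while its L copy had 657 and 690.

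The deposited symbols are human names, and the neighbours of a model show where they part from the Xenopus names. The 8 nearest models on each side were compared with the 15 nearest genes on each side of every SLC25 and UCP gene in the RefSeq table of assembly 10.1, with at least 5 shared names required. A RefSeq gene was found for 56 of 62 members, with the same name for 50. No gene was found for SLC25A30 on 2L, SLC25A38 on 4L, SLC25A15 on 8L, SLC25A10, SLC25A39 on 9_10S and SLC25A11. The pairs of SLC25A30, SLC25A38 and SLC25A39, all led by L, thus each hold a model without a match. The model called SLC25A6 on 8S shared 9 of its 16 named neighbours with slc25a5.S, so it lies where the S copy of slc25a5 is annotated. With that pairing, the log2 ratio of L over S per length for slc25a5 was 3.72 in library 3 and 3.85 in library 1. Neighbours also paired 3 scaffold models with a copy on a chromosome, and in these pairs S was above L in both libraries, though not by 2-fold in both. The log2 ratio was -1.20 in library 3 and -0.85 in library 1 for SLC25A25 (Scaffold70 over 8S). It was -0.41 in library 3 and -0.17 in library 1 for SLC25A42 (1L over Scaffold21), and -0.47 and -0.68 for SLC25A51 (1L over Scaffold21). The Scaffold70 model had only 5 named neighbours, and its match to slc25a25.L rests on the minimum of 5 shared names. The Scaffold21 models shared 10 (SLC25A42) and 11 (SLC25A51). With the 4 neighbour pairs added, 10 of 21 pairs were led by L and 2 by S, and the share over all pairs was not computed for that setting. The model called SLC25A25 on 3L lies where slc25a23.L is annotated (9 shared neighbours), and the SLC25A22 model on 3S where slc25a18.S is (11 shared). The SLC25A22 models on 2L and 2S lie at slc25a22l.L and slc25a22l.S (10 and 8 shared), and SLC25A15 on 2L at slc25a15.2.L (14 shared). The SLC25A22 models on 4L and 4S, with at most 6 reads in a library, are those that lie at slc25a22.L and slc25a22.S (10 and 9 shared). Outside the members, the model called UCP2 on 1S lies at ucp1.S (10 shared). No gene was found for the UCP2 models on 2L and 1L, so neighbours do not settle the name of the high model on 2L.

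To describe how far carrier levels differed between the libraries, each model with at least 10 reads was tested. This was an exact binomial test of its reads in library 3 and library 1, adjusted over all 18820 such models. The test compares these 2 libraries and covers counting error only. At a difference of at least 1.5-fold and an adjusted p under 0.05, 2 of 54 members were higher in library 3 (3.70%), against 10.4% of all models, and 3 were lower (5.56%), against 8.62%. A difference of any size passed for 31 of 54 members (57.4%), against 53.1%. Within 1.5-fold lay 46 members (85.2%), against 76.0% of all models. On the log2 scale, the median ratio of library 3 to library 1 was -0.05 over members and 0.05 over all models.

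The 5 members that passed were all low. SLC25A4 on 1S, with the reads given above, fell by 0.97 on the log2 scale (exact binomial test, adjusted p = 0.0136). SLC25A21 and SLC25A38 on 4L each had 68 reads in library 3 and 93 in library 1 and fell by 0.61 (exact binomial test, adjusted p = 0.0154 for each). SLC25A16 on 7L rose to 14 reads in library 3, against 3 in library 1, a log2 ratio of 1.42 with a counting interval of 0.21 to 4.49 (exact binomial test, adjusted p = 0.0310). SLC25A45 on 4L rose to 9 reads, against 1 in library 1, a log2 ratio of 1.56 with an interval of 0.14 to 8.45 (exact binomial test, adjusted p = 0.0453). These ratios are log2((CPM + 0.1)/(CPM + 0.1)). The counting intervals were computed from reads with nothing added, so at low counts they are not centred on these ratios. With 1 CPM added in place of 0.1, none of the 5 reached 1.5-fold.

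Among the abundant members the differences were small. SLC25A5 had a log2 ratio of -0.31, SLC25A6 of -0.17 and the SLC25A3 models of -0.08 (3L) and -0.07 (3S). SLC25A17 on 4L had 3373 reads in library 3 and 2103 in library 1, a log2 ratio of 0.51, the nearest to 1.5-fold among members above 20 RPKM. Exon length moved with the library ratio over the whole table. The median ratio was -0.11 in the fifth of models with the shortest exons (172 to 1434 bases) and 0.20 in the fifth with the longest (4035 to 20100 bases). Members had medians of -0.25 over 9 models and 0.13 over 4 models in these classes. The notochord markers summed to 782 CPM in library 3 and 437 CPM in library 1, while FOXA2, one of them, had 9.85 and 14.0 CPM on 5S and 4.92 and 6.34 CPM on 5L. The epidermis markers summed to 3785 CPM in library 3 and 3453 CPM in library 1, and most of that sum came from KRT8 and KRT18 on 2L and 2S. Some other epidermis markers were lower in library 3, with ITLN1 at 0.718 CPM in library 3 and 30.4 CPM in library 1. Not all were, since TP63 on 5L had 1.98 CPM in library 3 and 1.24 CPM in library 1. The highest KRT19 model of library 1 (9_10S) had 31.8 CPM in library 3 and 172 CPM in library 1, and the highest KRT12 model (9_10S) had 2.36 and 27.7 CPM. The part of these markers in the carriers' differences was not tested.

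**Figure D4:**
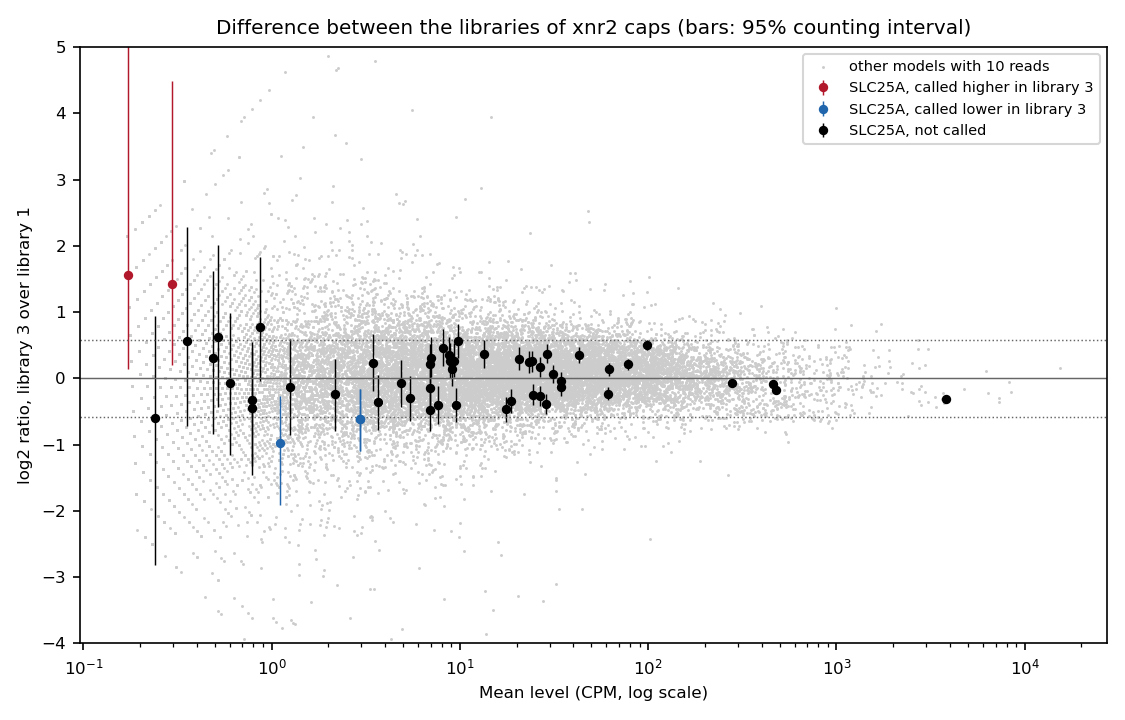
Log2 ratio of library 3 over library 1 against mean CPM (log axis) for the 54 SLC25A models with 10 reads, over all other such models in grey. Bars are 95% counting intervals from reads with nothing added, while the points have 0.1 CPM added. Dotted lines mark 1.5-fold, the bar of SLC25A45 runs past the top, and SLC25A21 and SLC25A38 share 1 point. Members above 10 CPM lie within 1.5-fold, and the 5 that passed the test lie below 5 CPM.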

How the data were processed

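RNA was measured in 2 libraries of xnr2-injected animal caps. The tools named in the submitters' processing notes are STAR 2.4.0k, HOMER, edgeR and FastQC. Per the file headers, HOMER counted exon reads on Mayball gene models of genome version 9.1 and rescaled them, so the deposited signal is a read count times 1 constant per library. The header names 4 libraries, and the other 2 were not analysed here (0 columns of other samples were used). The sources used here do not say how reads that map to several places were counted, and per the labels' protocols the kit was Illumina TruSeq v2.

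Whole reads were recovered by dividing the deposited signal by the value of 1 read, 0.715 in library 3 and 0.808 in library 1. This was checked on the nonzero values of few reads, 7016 of 21321 in library 3 and 7333 of 21286 in library 1. All of these came out whole within 0.05 (100%), and higher values do not enter that figure. No count test between groups was possible with 1 group. edgeR 4.0.16 (TMM) and DESeq2 1.42.0 (size factors) gave alternative scalings only. Models without a symbol (519) took 1.35% of reads in library 3 and 1.29% in library 1. Ratios use a pseudocount of 0.1 CPM or 0.1 RPKM. Functions were tested on simulated data.

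The text names, by rule, the 10 members highest by RPKM, the highest of each role, those past 1.5-fold between libraries, pairs past 2-fold, members at 0 reads the 3 on each side of 1 CPM, and the highest model of each comparison list. Other genes named were chosen after their values were seen. The members, lists and tests were chosen with earlier results of these data known. Coordinates are as deposited, on version 9.1.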

Additional observations from a re-analysis of the deposited data

How the results depend on the processing

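No paired analysis was possible because both libraries belong to 1 group. Leaving out each library in turn gave a median member level of 3.457 to 3.503 RPKM, and counts of pairs led by S of 2 to 3 and by L of 9 to 10. The median level was 3.37 and 3.44 RPKM with effective lengths for reads of 50 and 100 bases, 4.33 RPKM over models with 10 reads and 6.66 RPKM with models of a symbol added up. Without SLC25A5 the share of reads was 0.205%, against 0.586% with it. Between libraries, the count higher in library 3 was 1 with no read minimum, and the count lower was 0 at 2-fold (exact binomial test). At 4-fold, 2 pairs were led by L and 1 by S. Pairs led by S came to 1 with 100 reads required, with a pseudocount of 1 RPKM, and with exon lengths within 1.5-fold, where 5 pairs were led by L. The median log2 ratio of L over S was 1.485 with 100 reads, 1.06 with a pseudocount of 1 RPKM and 1.25 with the 4 pairs added by their neighbours. The split between copies differed in 1 pair at 2-fold, against 3 at 1.5-fold. Apart from the limit on exon length, no shares over the whole table were computed for the counts at these altered settings. The neighbour pairs, the length limit, the share without SLC25A5 and the split were added after the data were seen. In the other settings, 46 values stayed within the replicate spread, the counting interval or 1.5 times the count. The causes were not tested. Read number limits all members below 1 CPM.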

Other observations

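SLC25A21 on 8L and SLC25A38 on 4L had the same reads in both libraries, 68 in library 3 and 93 in library 1, with exons of 1581 and 2873 bases. No model besides these had that pair of counts.

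Among other mitochondrial transporters, some models differed between the libraries by at least 1.5-fold with an adjusted p under 0.05. Over all tested models 10.4% were higher in library 3 and 8.62% lower. Of the sideroflexins 2 of 6 tested models were higher and 0 lower, and of the outer membrane channels 0 of 3 were higher and 1 lower. Of the pyruvate carrier, 0 of 4 models passed in either direction. The sideroflexin SFXN1, a serine carrier of the inner membrane, had 23.4 RPKM in library 3 and 9.48 RPKM in library 1 on 3L. That model was higher in library 3 with a log2 ratio of 1.30 (exact binomial test, adjusted p = 1.66e-215). A second SFXN1 model, on 7L, had 25 reads in library 3 and 16 in library 1 and did not pass. The outer membrane channel VDAC1 on 3S had 38.2 RPKM in library 3 and 58.5 RPKM in library 1, and fell by 0.62 (exact binomial test, adjusted p = 1.70e-60). Its L copy had 40.6 RPKM in library 3 and 41.4 RPKM in library 1. VDAC1 was chosen after its values were seen.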
